A study of Mus musculus with 15 samples.

Results

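PU.1 regions of mouse macrophages that held a peak in both control libraries, in both libraries with a hairpin against PU.1, and on chromatin assembled in the test tube numbered 3420 of 53107 merged regions. Overlapping in vivo peaks (at least 1 bp) were joined into regions, which gave 8666 regions with a peak in all 4 lists (16.3% of all merged regions). Members are the 3420 of these that also shared at least 1 bp with a peak of the in vitro list. For comparison, 5246 regions had a peak in all 4 in vivo lists and no in vitro peak. A second comparison set held 840 regions with a peak in both control lists and in vitro, and in neither hairpin list. All 3 sets were chosen by the presence or absence of a peak in the 5 lists, so that presence is given as a description and supports nothing. The members are called resistant to the knockdown only in the sense that both hairpin libraries had a peak there.

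PU.1, encoded by Spi1, is a transcription factor of the ETS family that macrophages and B cells need for their development. It binds short purine-rich DNA elements with a GGAA core, mostly at enhancers, and is known in macrophages for opening chromatin together with partner factors. Nucleosomes can hide such elements, and a comparison of binding in cells with binding on chromatin rebuilt from purified DNA and histones asks which sites nuclear extract can bind on such chromatin. A comparison with cells that have less PU.1 asks which sites stay bound when the factor is limiting.

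All libraries came from C57BL/6 mice. Primary bone marrow-derived macrophages at day 7 of differentiation carried an inducible retroviral vector with an shPu.1 hairpin (2 libraries) or the same kind of vector with an sh-Renilla hairpin, called empty in the titles (2 libraries). Both groups were selected with puromycin at 3 µg/ml, and doxycycline at 0.5 µg/ml was given for 48 hours, per the labels' protocols. Cells of both groups were fixed with 1% formaldehyde for 10 min, and no fixation is recorded for the in vitro libraries. The design text describes 1 hairpin against PU.1, and the labels do not say whether replicates came from separate mice or cultures, so any spread between them may be technical. The in vitro list came from nucleosomes assembled with recombinant histones on sheared, protein-free macrophage DNA, trimmed with micrococcal nuclease and incubated with macrophage nuclear extract depleted with normal IgG (1 library). Its peaks were called against a library made with extract depleted of PU.1 (1 library), so the list has no replicate. The remaining 9 samples of the series are digests with micrococcal nuclease and were not analysed here.

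The lists held 30026 and 36759 peaks in the control libraries, 15122 and 27733 in the shPU.1 libraries and 57512 in vitro. They hold no read counts, so depth is unknown, and no PU.1 transcript or protein level can be read from them. The score of a peak is the authors' value from the peak caller, runs from 50 upwards and grows with depth. Strength is therefore given as a percentile of the score within 1 list, with 100 as the highest. A region with several peaks in a list takes the highest. Median peak width went with the replicate number: the 2 replicate 1 libraries had 435 bp (control) and 448 bp (shPU.1), and the 2 replicate 2 libraries had 892 bp (control) and 1076 bp (shPU.1). Sequence and gene names at the members are not given, because no mm9 sequence or annotation was used here.

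The more in vivo lists held a peak in a region, the more often the region also held an in vitro peak. Of the 25292 regions seen in 1 in vivo list, 15.7% also held one (exact 95% interval 15.3 to 16.2). The share was 20.3% of the 11251 regions seen in 2 lists (19.5 to 21.0) and 27.5% of the 7898 regions seen in 3 lists (26.5 to 28.5). It was 39.5% of the 8666 regions seen in all 4 (38.4 to 40.5), which are the 3420 members. Over all merged regions the share was 22.3%. These intervals, and all those below, are Clopper-Pearson intervals that cover the counting of regions only. Regions in more lists were also wider, with medians of 622, 1007, 1232 and 1408 bp in the same order. The part of width in this order was not tested across all regions.

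Among the 8666 regions seen in all 4 lists, width went little with the in vitro share, and rank went with it strongly. In the narrowest quintile (466 to 1145 bp) 35.8% held an in vitro peak, and in the widest quintile (2030 to 27530 bp) 41.3% did. By mean percentile over the 4 lists, the share was 28.3% in the lowest decile (25.3 to 31.4) and 63.9% in the highest (60.6 to 67.1). From the 4th to the 7th decile it stayed between 35.6% and 37.6%, and the 8th and 9th had 44.2% and 48.8%. The link with rank thus sat mostly in the top 3 deciles.

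**Figure D1:**
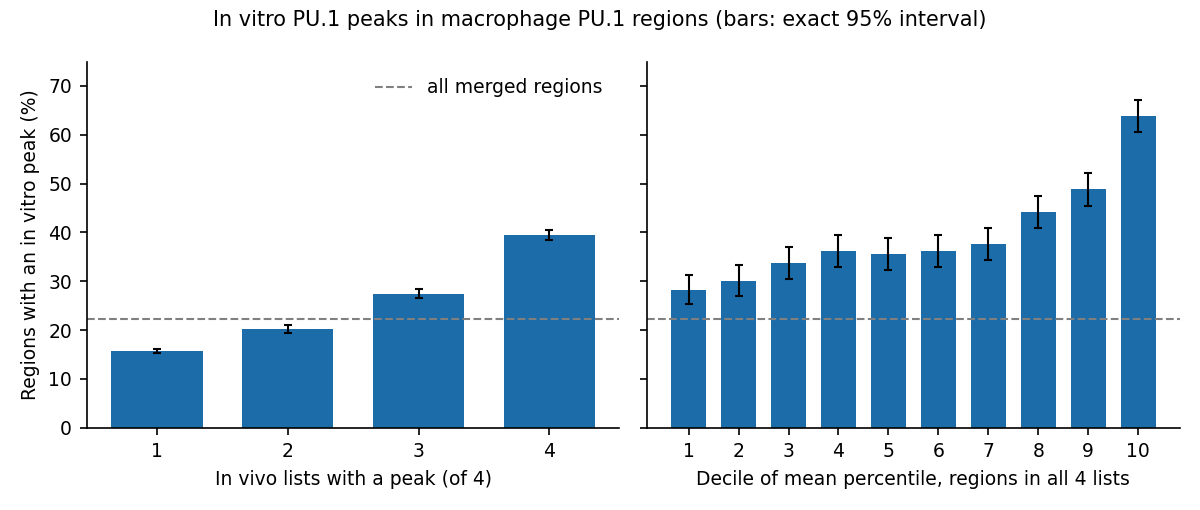
Share of regions with an in vitro peak (%, vertical axis) by the number of in vivo lists with a peak (left) and, for the 8666 regions in all 4 lists, by decile of the mean score percentile (right). Bars are shares with exact 95% intervals, and the dashed line is the 22.3% of all merged regions; the share goes from 15.7% to 39.5% on the left and from 28.3% to 63.9% on the right.

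The 4 libraries did not show this link with rank alike. The same 8666 regions were split into deciles by their score in each list alone. In the list of control replicate 1 the share was 39.6% in the lowest decile and 44.6% in the highest. In control replicate 2 it was 25.03% and 52.4%. The first shPU.1 list gave 31.5% and 64.4%, the second 23.3% and 63.9%. The highest decile of either shPU.1 list thus held more in vitro peaks than the highest decile of either control list, and the lowest deciles did not order by group.

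Members ranked above the 5246 regions without an in vitro peak in each of the 4 lists, and by more in the shPU.1 lists. The median percentile of members was 78.8 and 87.9 in control replicates 1 and 2, and 75.1 and 87.1 for shPU.1 replicates 1 and 2. The corresponding medians of regions without an in vitro peak were 76.4, 81.3, 63.6 and 78.8. Members were therefore higher by 2.35 and 6.54 percentile points under the control vector, and the hairpin lists had gaps of 11.4 and 8.32 points. The gap was 4.45 ± 2.96 (SD, n = 2) under the control vector and 9.88 ± 2.20 (SD, n = 2) under the hairpin, and the groups did not overlap. The difference of 5.43 points had p = 0.33 by an exact two-sided permutation test, the least that 2 against 2 libraries allow. With percentiles taken only among the 8666 regions, so that each list ranked the same regions, the control gaps were 3.86 and 15.5 points and the hairpin gaps 15.5 and 19.2 points. Control replicate 2 and shPU.1 replicate 1 were then level to 3 digits, the group means differed by 7.68 points (exact permutation p = 0.33), and control replicate 1 was the library farthest from the rest. With the lists limited to equal length, the difference between the groups was 3.99 points and its exact permutation p was 0.67, so the groups were then no longer the most extreme split. Nor were they when control replicate 1 or shPU.1 replicate 1 was left out.

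**Figure D2:**
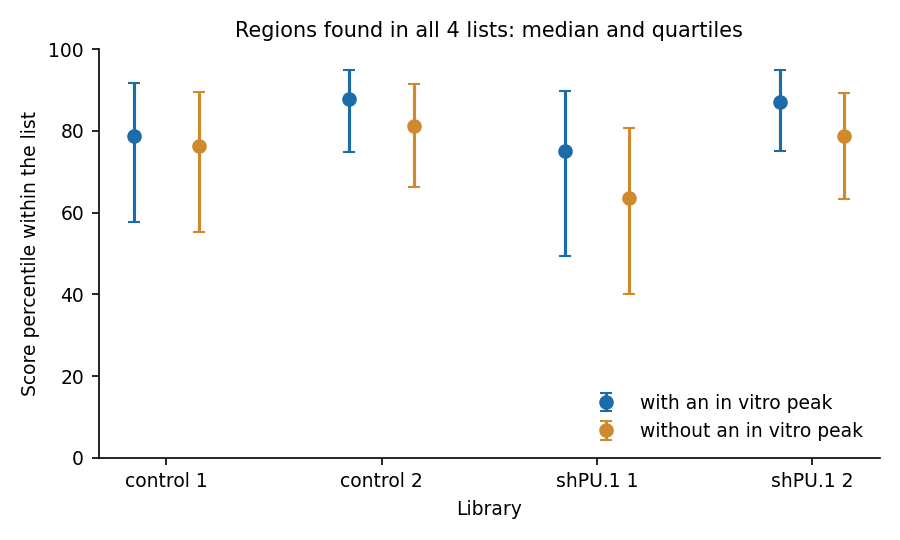
Score percentile within each list (vertical axis) for regions found in all 4 lists, with an in vitro peak (blue, 3420 regions) and without (orange, 5246 regions). Points are medians and bars run from the lower to the upper quartile; the medians lie 2.35 and 6.54 points apart for the control libraries, then 11.4 and 8.32 points apart for the hairpin libraries.

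In percentiles within each list, the members' own medians did not differ between the groups beyond the spread of the libraries. The control average was 83.3 ± 6.45 (SD, n = 2) and the shPU.1 average 81.1 ± 8.52 (SD, n = 2), a difference of -2.21 points (exact two-sided permutation p = 0.67). The direction of this difference depends on the scale. Among the 8666 regions alone the control medians of members were 52.5 and 59.6 and the hairpin medians 60.0 and 61.8. The groups did not overlap on that scale, and the difference was 4.87 points (exact permutation p = 0.33). It was also above 0 with all lists limited to equal length (6.52), when control replicate 2 was left out (2.37) and when shPU.1 replicate 1 was (3.4). The lists differ in length, and limiting them to equal length thus moved the difference from -2.21 to 6.52 points. That setting also left fewer members (2579), so the part of length over a fixed set of members was not tested.

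Compared at a like control rank, members had higher median percentiles than the other regions in most deciles of both shPU.1 lists, with the largest difference at the strongest control sites. This comparison was chosen after the data were seen. The 8666 regions were split into deciles of their mean percentile in the control lists. In the highest decile (96.3 to 99.99), the 412 members had a median percentile of 95.4 in the first shPU.1 list, and the 455 regions without an in vitro peak had 81.6. In the second the medians there were 97.8 and 89.8, and the control medians of the 2 sets were 98.2 and 98.1. In the lowest decile (3.27 to 44.8) the medians were 46.1 against 45.6 in the first and 61.9 against 57.7 in the second. The second-lowest decile had the next largest differences, 11.9 and 7.43 points, so the differences did not follow the control rank in order. In the first shPU.1 list members were lower in the 3rd and 4th deciles, at 53.9 against 55.8 and 57.7 against 60.3. Members were higher in 10 of 10 deciles in shPU.1 replicate 2, by 2.53 to 8.06 points, and in 8 of 10 in shPU.1 replicate 1, where the differences ran from -2.60 to 13.8 points. Control medians of members and of the other regions in a decile differed by -0.073 to 1.04 points. The 2 control lists ranked regions alike only in part, with Spearman's rho of 0.71 over members and 0.70 over the others. A like mean control rank is therefore not a complete match for sets that, as here, differ in rank in each list. The part of this in the differences was not tested.

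**Figure D3:**
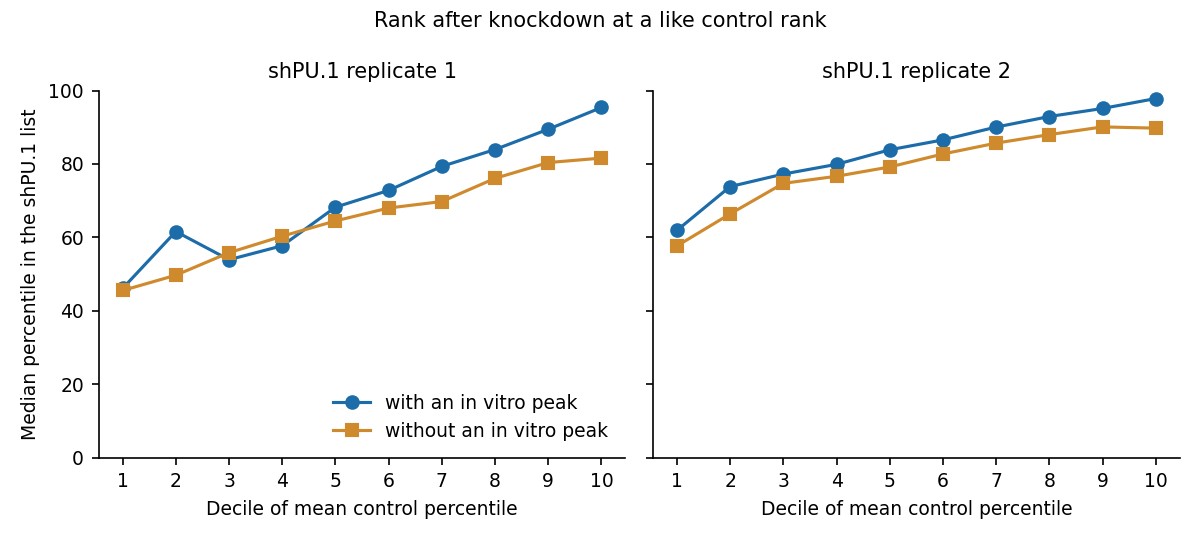
Median score percentile in each shPU.1 list (vertical axis) by decile of the mean control percentile (horizontal axis), for regions in all 4 lists with an in vitro peak (blue) and without (orange). Members lie below the other regions in deciles 3 and 4 of replicate 1. The lines lie furthest apart in the highest decile, at 95.4 against 81.6 for replicate 1 and 97.8 against 89.8 for replicate 2.

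Fewer members than other regions had both shPU.1 percentiles below both control percentiles. Of the members, 699 (20.4%, exact interval 19.1 to 21.8) were ordered in this way, against 26.3% of all 8666 regions. Of regions without an in vitro peak, 1577 were (30.1%, 28.8 to 31.3). In the opposite order, with both shPU.1 percentiles above both control percentiles, there were 643 members (18.8%, 17.5 to 20.2), against 16.2% of all 8666 regions. Among regions without an in vitro peak there were 765 (14.6%, 13.6 to 15.6). Within control deciles, the share below was smaller for members in 10 of 10, and the share above was larger in 9 of 10. The share below was 2.60% of members against 3.68% of the others in the lowest decile, and 47.3% against 79.8% in the highest. The deciles were cut on the control percentiles that these orders use, so the level of each share is partly set by the decile. The match on control rank is also incomplete, as stated above.

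Such counts move with the replicate number too, and with single libraries. Both number 2 percentiles lay above both number 1 percentiles in 1369 members (40.0%), against 34.2% of all 8666 regions, and the opposite held for 93 members (2.72%), against 4.25%. Among the 8666 regions alone, 606 members lay below the controls (17.7%, against 22% of all) and 1057 above (30.9%, against 26.4%). On that scale the number 2 libraries were both above the number 1 libraries in 603 members (17.6%, against 14.3%) and both below in 366 (10.7%, against 15.2%). With each shPU.1 library set only against the control of its own number, 1131 members were below (33.1%, against 37.5% of all) and 999 above (29.2%, against 25.7%). Ranked among the 8666 regions these were 825 (24.1%, against 29.1%) and 1337 (39.1%, against 34.9%). Leaving out control replicate 1 put 1622 members below (42.4%, against 45.1% of regions without an in vitro peak at that setting). Leaving out shPU.1 replicate 1 put 1387 below (27.6%, against 39.9%) and 2069 above (41.2%, against 32.8%). Leaving out shPU.1 replicate 2 put 1783 below (51.2%, against 58.2%). Leaving out control replicate 2 put 1437 above (41.8%, against 31.0%). With lists of equal length, 367 members were below (14.2%, against 23.1%) and 936 above (36.3%, against 30.3%), so which of the 2 counts is larger depends on the setting. With fewer libraries, fewer values have to be in order. In each of 11 alternatives the share below was smaller in members than in regions without an in vitro peak, by 2.70 to 12.7 points, and the share above was larger, by 1.74 to 10.8 points. Differences in depth or in the calling of peaks between the libraries, whose widths are given above, were not tested as a part of these shares.

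The order of the members among themselves was also more alike between the groups. Spearman's rho between the control lists was 0.71 over the 3420 members and 0.70 over the 5246 regions without an in vitro peak. Between a control and a shPU.1 list it was 0.51 to 0.67 over members, and over the others it was 0.35 to 0.54. Between the shPU.1 lists it was 0.73 and 0.59. These are descriptions over regions that share their libraries, and regions are not replicates.

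Members strong in every library were common. A percentile of at least 90 in all 4 lists was reached by 473 members (13.8%, 12.7 to 15.0), against 8.46% of all 8666 regions and 4.96% of those without an in vitro peak. A percentile below 50 in all 4 lists was found in 40 members (1.17%, 0.837 to 1.59), against 1.66% of all 8666 regions. At least 90 in both controls was reached by 848 members (24.8%) and in both shPU.1 lists by 762 (22.3%). Without an in vitro peak, these shares were 17.4% and 9.26%. At 90 or above in both controls and below 50 in both shPU.1 lists were 2 members (0.058%, 0.0071 to 0.211). Of regions without an in vitro peak 23 were (0.438%, 0.278 to 0.657), and of all 8666 regions 0.288% were. The reverse was found in 0 of 3420 members, which allows a share of up to 0.108% (exact interval).

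The 8 members with the highest mean percentile were at or above the 98.9th percentile in each of the 4 lists. The first was at chromosome 11, 20011686 to 20014386, with percentiles of 99.99 and 99.98 (control) and 99.87 and 99.99 (shPU.1). Its best in vitro peak, of 2 there, was at percentile 94.2. The next 3 lay on chromosome 2. At 167749858 to 167752800 the in vivo percentiles were 99.96 and 99.75 (control) and 99.72 and 99.85 (shPU.1), yet the in vitro peak was only at percentile 42.9. At 156888388 to 156890654 they were 99.92, 99.91, 99.53 and 99.73 in the same order of libraries, with an in vitro percentile of 96.3. At 127833398 to 127835668 they were 99.70, 99.98, 99.45 and 99.95, and here the in vitro score of 3100 was among the highest of its list. The region at chromosome 9, 70107619 to 70110289, had 99.48 and 99.77 in the controls, 99.64 and 99.78 under the hairpin and 94.4 in vitro. The region at chromosome 4, 141033020 to 141034649, had 99.40 and 99.58, then 99.68 and 99.91, and 96.6 in vitro. At chromosome 15, 7034253 to 7036132, the values were 99.60 and 99.57, then 99.35 and 99.95, and 98.6 in vitro. At chromosome 2, 71175577 to 71176909, they were 98.95 and 99.77, then 99.70 and 99.95, and 95.02 in vitro. In 7 of these 8 the in vitro percentile was thus above 90, and the means of the control and shPU.1 percentiles lay within 1 point of each other. That closeness is set by the choice, since a mean near 100 over the 4 lists leaves little room for a difference between groups. Raw scores were lower in shPU.1 replicate 1, for example 1048.78 against 2827.26 and 3100 in the controls at the chromosome 11 region, but scores of lists of unknown depth are not comparable.

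In vitro strength followed in vivo strength only loosely within the members. The median in vitro percentile of members was 70.3 (lower quartile 42.0, upper quartile 89.3). It was 65.5 in the 840 regions lost from both shPU.1 lists and 64.2 in the 1727 regions with an in vitro peak that both controls and 1 shPU.1 list held. The medians of members and lost regions differed by 4.84 points, with order-statistic intervals of 68.9 to 71.6 and 62.6 to 68.4 that cover counting only. The difference was 1.41 points with lists of equal length, 1.83 without control replicate 1 and 2.32 without shPU.1 replicate 1. The 2 sets differed far more in their control percentiles, with medians of 82.0 and 41.2. Spearman's rho between in vitro and in vivo percentile over the 3420 members was 0.14 for the mean of the 4 lists. By list it was 0.063 and 0.17 (control) and 0.14 and 0.15 (shPU.1), all weak. In vitro percentile and in vitro peak width went together with a rho of 0.80, so that these 2 measures are not separate.

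Seen from the in vitro list, 3504 of its 57512 peaks (6.09%) lay on a member. The share went from 3.01% of peaks in the lowest decile of in vitro score (2.59 to 3.49) to 7.75% in the 8th, 8.19% in the 9th and 14.3% in the highest (13.4 to 15.2). Members in the lowest in vitro decile (164) had control medians of 78.7 and 84.0 and shPU.1 medians of 69.7 and 84.1. Members in the highest (811) had control medians of 81.7 and 91.3 and shPU.1 medians of 81.4 and 90.5. All 4 medians were higher in the highest decile, least so in control replicate 1 and most so in shPU.1 replicate 1.

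Strong binding in cells and weak binding in vitro could still meet at 1 site. Of the 473 members at or above the 90th percentile in all 4 lists, 154 (32.6%, 28.4 to 37.0) were also at or above it in vitro, compared with 811 of all 3420 members (23.7%). Another 116 (24.5%, 20.7 to 28.7) had an in vitro percentile below 50, compared with 31.2% of all members, and 18 were below 10. Of the 40 members below 50 in every in vivo list, 5 were at or above 90 in vitro and 20 were below 50. The 3 weakest members had in vivo percentiles of at most 33.6. They lay at chromosome 6, 42245454 to 42247041, chromosome 10, 20786873 to 20787762, and chromosome 14, 18589067 to 18589907. Their in vitro percentiles were 27.7, 71.4 and 51.4.

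The centres of in vivo and in vitro peaks lay close together. For the highest peak of each kind in a member, the median distance was 92.5 bp in control replicate 1, 125 bp in control replicate 2, and 93.5 and 136.5 bp for the first and second shPU.1 library. The centres were within 100 bp of each other in 53.2%, 41.5%, 52.5% and 39.1% of members in the same order. The distances went with the replicate number, as did the peak widths, and not with the group. They were of the size of those between in vivo libraries, which ran from 64.5 bp (control and shPU.1 replicate 1) to 121.5 bp (control and shPU.1 replicate 2) in the same members. The in vivo centre was to the left in 1713 members and to the right in 1700 for control replicate 1, and in 1744 and 1670 for shPU.1 replicate 2. Median signed distances ran from -6.25 bp in shPU.1 replicate 2 to 2 bp in control replicate 2. In the 840 lost regions the median distances to the in vitro centre were 97 and 120 bp in the 2 control lists, close to those in members. A shared base bounds the distance, so that a small value is partly set by the choice of members, whose median in vitro peak was 965 bp wide.

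**Figure D4:**
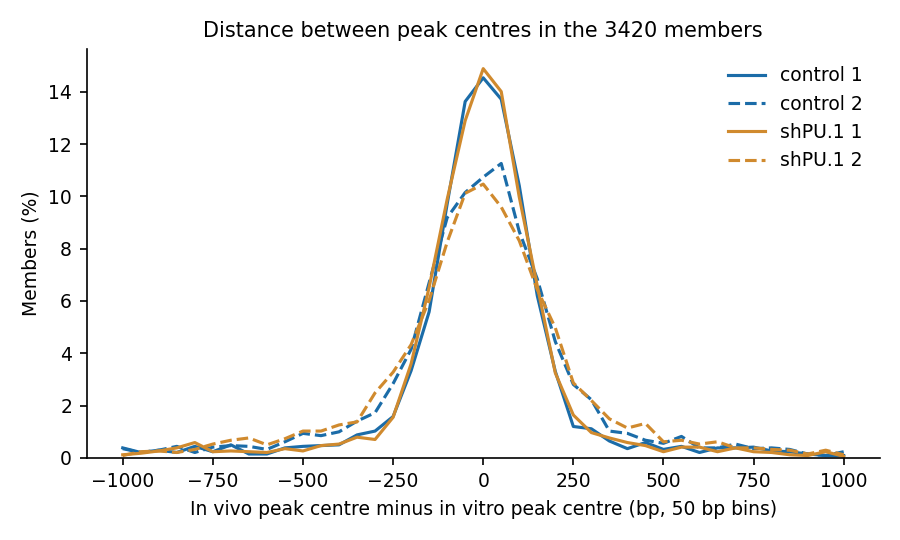
Distance from the in vitro to the in vivo peak centre (bp, horizontal axis, 50 bp bins) in the 3420 members, as the percentage of members per bin, for each library. All 4 curves peak near 0; the replicate 1 libraries (solid), with narrower peaks, have medians of 92.5 and 93.5 bp, and the replicate 2 libraries (dashed) 125 and 136.5 bp.

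Overlap at the edge was rare. The in vitro peak and the region shared a median of 926 bp (quartiles 773 and 1097.25), which was 65.0% of the region. In 2310 members (67.5%) the best in vitro peak lay wholly inside the region. In 20 members (0.585%) less than 100 bp were shared. The smallest overlaps were 2 bp at chromosome 6, 113701712 to 113703359, 8 bp at chromosome 15, 44447998 to 44449205, and 16 bp at chromosome 10, 98855448 to 98856947. Just outside, the nearest in vitro peak began or ended 5 bp from the region at chromosome 6, 98976517 to 98979268, 14 bp from chromosome 1, 94966746 to 94969185, and 17 bp from chromosome 2, 12005514 to 12006716. In all, 23 of the 5246 regions without an in vitro peak had one less than 100 bp away. Most members were simple: 2876 (84.1%) had exactly 1 peak in each in vivo list, and 3340 had 1 in vitro peak.

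The other edge of the rule is the score at which a peak enters a list. The lowest member scores were 50.13 and 50.06 (control), 50.06 and 50.08 (shPU.1) and 50.01 in vitro. A score under 60 was found in 157 (4.59%) and 18 (0.526%) members in the controls, and in 359 (10.5%) and 54 (1.58%) under the hairpin. In vitro it was found in 266 (7.78%). The share among other regions was not counted, so these values do not set members apart from them. The list of shPU.1 replicate 1 thus had the largest of these 5 counts. The in vitro list left out the most regions, since 5246 had a peak in the 4 in vivo lists and none there. Among the in vivo lists it was shPU.1 replicate 1: 1607 regions had a peak in the other 4 lists and none there. The corresponding numbers were 407 for control replicate 1, 37 for control replicate 2 and 120 for shPU.1 replicate 2. With a minimum score of 100 in every list, 1284 members were left.

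Members with the largest differences between the groups were single sites far from the median. The percentile was lower in both shPU.1 lists, with a mean difference of -70.8 points, at chromosome 7, 4971359 to 4973311. There the values were 94.7 and 93.9 (control) and 45.8 and 1.25 (shPU.1), so the shPU.1 libraries differed widely. At chromosome 1, 163805821 to 163807839, they were 92.1 and 94.3, then 3.43 and 44.6, but the in vitro peak shared only 34 bp and was at percentile 5.16. At chromosome 6, 30304349 to 30305514, they were 65.0 and 63.0, then 3.02 and 0.718, and here both shPU.1 libraries were near the floor. At chromosome 15, 80778473 to 80779636, the values were 98.9 and 96.9, then 7.05 and 64.4. At chromosome 16, 62785298 to 62787579, they were 89.8 and 88.8, then 0.582 and 54.4. In all 5 the control percentiles lay within 3 points of each other, and in 4 of the 5 the shPU.1 percentiles were over 40 points apart.

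In the opposite direction the first 2 members lay on chromosome X. At 54559529 to 54560524 the percentiles were 8.72 and 9.91 (control) and 81.0 and 82.3 (shPU.1), with an in vitro percentile of 87.6. At 57274174 to 57275372 they were 14.9 and 16.6, then 79.5 and 83.2, with 88.3 in vitro. Both had tight replicates in both groups. At chromosome 7, 89065898 to 89067189, they were 1.13 and 27.1, then 77.1 and 75.7. At chromosome 5, 101138597 to 101141558, they were 12.0 and 44.1, then 91.8 and 83.1. At chromosome 11, 101082468 to 101083686, they were 1.96 and 35.2, then 71.5 and 82.4. All 10 sites were picked for these differences, so that no test applies to them.

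**Figure D5:**
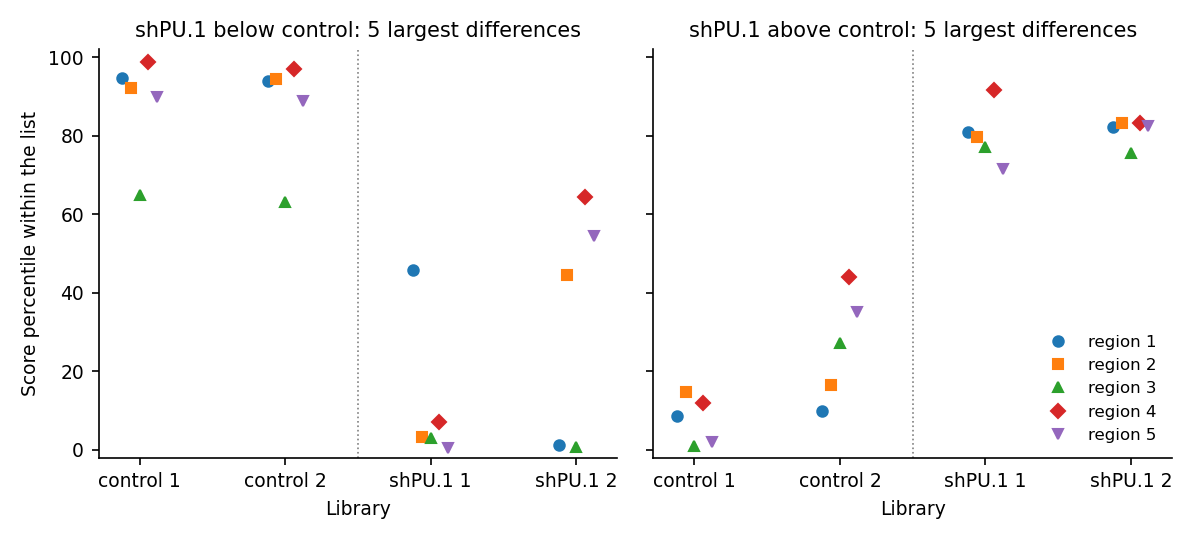
Score percentile in each library (vertical axis) of the 5 members with the largest mean difference below control (left) and above control (right), among members whose groups do not overlap. Each symbol is 1 region; on the left the 2 shPU.1 values of 4 regions lie far apart (7.05 and 64.4 in region 4), and on the right the 2 chromosome X regions (region 1 and region 2) have nearly equal replicates.

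A few members were far wider than the members' median of 1431 bp, and a few, not all of them wide, carried saturated in vitro scores. An in vitro score of at least 3100 was found in 22 members, whose best in vitro peaks had a median width of 2211 bp (882 to 18309) and whose mean in vivo percentiles ran from 48.2 to 99.8. The widest member, at chromosome 1, 90147724 to 90167007, spanned 19284 bp. Its percentiles were 31.3 and 27.9 (control) and 42.1 and 91.3 (shPU.1). The next were at chromosome X, 166409238 to 166425931, and at chromosome Y, 2847937 to 2863969. The chromosome Y region held 6 and 4 control peaks and 8 and 1 shPU.1 peaks. Of the 5 members with the highest in vitro score, ties being ordered by in vivo percentile, 2 lay on chromosome Y and 1 at chromosome 17, 39979425 to 39986071. The other two, at chromosome 2, 127833398 to 127835668, and chromosome 9, 96299147 to 96300800, were narrower (2271 and 1654 bp), with in vivo percentiles from 98.9 to 99.98. No filter for repeats or artefact regions was applied here, and the part of repeats in these wide members was not tested.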

How the data were processed

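PU.1 ChIP libraries (2 control, 2 shPU.1, and an in vitro pair that gave 1 list) were used as deposited peak lists. Reads were aligned with Bowtie 0.12.7 to mm9 and MACS 1.4 called the peaks, per the submitters' processing notes; the settings were not given in the sources used here. Each in vivo library had its own list, called against input as the deposited names say. The deposited score is, by the caller's convention, 10 times the −log10 of its p-value. Depth is unknown.

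Peaks were merged with Python 3.11.15 (numpy 2.4.6, pandas 2.3.3, scipy 1.17.1), and percentiles were taken within each list. Peak centres are those of the highest-scoring peak. Coordinates are mm9, counted from 1. Groups were compared by exact two-sided permutation over 4 libraries. Members and comparisons were chosen with earlier results of these data known. Regions were named by rule: the 8 highest by mean percentile, the 5 highest in vitro, 5 with the largest differences between non-overlapping groups in each direction, the 3 weakest, the 3 widest, and 3 on each side of the overlap threshold. The code was tested on simulated data. Planned results on sequence and genes needed mm9 sequence and annotation, not used here.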

Additional observations from a re-analysis of the deposited data

How the results depend on the processing

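Depth is unknown for every list and each group has 2 libraries, which limits every value above. In this section, shares of members below or above both controls are set against those of regions without an in vitro peak at the same setting. With a minimum score of 100 there were 1284 members, 35.0% of regions in all 4 lists. Of these, 270 lay below both controls (21.0%, against 30.2%) and 175 above (13.6%, against 9.93%). Peaks trimmed to the central 200 bp gave 36.6%, 398 below (17.2%, against 25.9%), 491 above (21.3%, against 16.3%) and a centre distance of 83 bp. Lists of equal length gave 42.5%, 367 below (14.2%, against 23.1%) and 936 above (36.3%, against 30.3%). The shPU.1 minus control difference in the members' median was then 6.52 points, a reversed sign. A higher minimum score, equal lengths and trimming only drop or shorten peaks, so members at these settings had to lie on the 3420. The 1284, 2579 and 2308 members there touched 1284, 2579 and 2307 of the 3420. Ranking only regions in all 4 lists reversed that difference to 4.87, put 1057 members above the controls and moved the gap in mean control percentile (median of members minus median of regions without an in vitro peak) from 4.49 to 9.01 points. The in vitro share was 35.8%, 38.3%, 41.0%, 41.0% and 41.3% over width quintiles and 28.3%, 30.1%, 33.7%, 36.2%, 35.6%, 36.2%, 37.6%, 44.2%, 48.8% and 63.9% over rank deciles.

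Leaving out 1 library gave 3434 to 5027 members, shares of 34.4% to 39.4% and gaps in mean control percentile of 2.73 to 6.72 points. Members below numbered 894 to 1783 (26.0% to 51.2%, against 38.8% to 58.2% of regions without an in vitro peak). Members above numbered 789 to 2069 (22.6% to 41.8%, against 19.2% to 32.8%). In vitro differences from lost regions were 1.83 to 5.87 points and centre distances 99.5 to 114.5 bp. The members' difference ran from -8.57 to 3.4, reversed without control replicate 2 (2.37) and shPU.1 replicate 1 (3.4). The difference of the gaps between groups stayed above 0 in 11 of 11 alternatives and was 3.22 to 8.16 with 1 library left out. Without control replicate 1 (3.22) and without shPU.1 replicate 1 (7.46), the groups were not the most extreme split of the libraries left. With lists of equal length the difference of the gaps was 3.99, with an exact permutation p of 0.67 in place of 0.33. The in vitro difference from lost regions was 1.41 points with equal lengths. With the replicate block, libraries were compared within a number and the difference was taken in each member first. The median of these differences was -1.75 points for number 1 and 0.21 for number 2, with a mean of -0.77. This is another measure than the difference of medians used elsewhere, so the values do not show what blocking alone changes. Below the control of their number were 1131 members (33.1%, against 37.5% of all 8666 regions), and 999 were above (29.2%, against 25.7%). No label ties equal numbers to a common mouse or date, and deviations of same-numbered libraries had a correlation of 0.105 over the 8666 regions. Keeping only regions with 1 peak in each list was chosen after seeing the data. It gave 554 members below (19.3%, against 27.8% of regions without an in vitro peak) and 585 above (20.3%, against 15.7%). The larger count of members was then the one above. The alternatives for motifs and gene starts were not run.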

Other observations

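Members were spread over the genome much like other regions in all 4 lists. The share of these regions that were members ran from 32.5% on chromosome 8 (exact interval 28.1 to 37.1) to 44.3% on chromosome 13 (39.4 to 49.3) among autosomes. On chromosome X it was 36.8% of 106 (27.6 to 46.7), although the in vitro list held 6.72 peaks per Mb there against 19.5 to 24.6 on autosomes. On chromosome Y, 5 of 7 regions were members.

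The distance from a member to the next one has to be read beside the size of the set. Another member was within 10 kb of 305 members (8.92%). A separate grouping of neighbouring members left 3054 alone, with 159 pairs and 16 groups of 3. The grouping does not match the count of 305, so the 2 did not measure distance alike. A region of the same set was within 10 kb of 14.8% of the 5246 regions without an in vitro peak. For the 840 lost regions this share was 3.81%. The shares thus went in the order of the set sizes. The nearest region found in all 4 lists was within 10 kb of 21.9% of members and of 22.9% of regions without an in vitro peak. Within 50 kb, members had a mean of 2.79 other in vitro peaks and 5.31 other in vivo regions. For regions without an in vitro peak these means were 2.63 and 5.59, so the surroundings of both sets were alike in these counts.

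The regions that lacked only 1 in vivo list differed in their in vitro share by which list was missing. Of the 1048 regions missing from control replicate 1 alone, 38.8% held one (35.9 to 41.9), near the 39.5% of regions in all 4 lists. The share was 26.9% of the 5964 missing from shPU.1 replicate 1 alone (25.8 to 28.1), 27.0% of the 137 missing from control replicate 2 alone (19.8 to 35.3) and 16.0% of the 749 missing from shPU.1 replicate 2 alone (13.5 to 18.8).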
